A study of Mus musculus with 2 samples.

Results

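Both receptors that bind corticosteroids inside cells, an enzyme that makes their ligand, a pair of cochaperones and genes that the bound receptors induce were followed in ribosome-bound RNA of mouse cortex. The set is Nr3c1, Nr3c2, Hsd11b1, Fkbp4, Fkbp5, Sgk1 and Tsc22d3, and its probe sets are those whose platform annotation names only that gene. All 7 genes were found, on 8 of the 34472 probe sets of the array, among 22180 named genes in all. The RNA came from a pool of medial prefrontal cortices of 5 adult mice of the strain D2Cre::RiboTag, in which Cre expressed under the Drd2 (dopamine D2 receptor) driver switches on a haemagglutinin-tagged ribosomal protein, so that ribosomes with their messengers can be pulled out of a lysate with an antibody to the tag. The label calls the source cells Drd2+ neurons, and 2 arrays were labelled as technical replicates of the pool. That both came from a single pool is assumed here, because the labels leave it unstated. Both arrays belong to 1 group. No untreated or stressed comparison, unprecipitated RNA or mock precipitation was analysed here, so the values give signal in this RNA and neither enrichment nor a response to hormone. Recombination by Cre is permanent, so cells that used the driver only earlier in life also carry the tag.

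In rodents the adrenal hormone is corticosterone. It crosses membranes and binds the mineralocorticoid receptor (Nr3c2) with high affinity and the glucocorticoid receptor (Nr3c1) with lower affinity, so the latter is engaged mainly at the daily peak and during stress. Unbound receptors sit in the cytosol in a complex with Hsp90 and cochaperones, and after binding hormone they move to the nucleus and act on DNA as dimers or through other factors. In the prefrontal cortex these receptors are known for shaping working memory, dendrite structure and the shut-off of the stress axis.

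Start-site windows of the members are shown first because the receptors bind a short palindrome, whose letters can be read directly. RefSeq windows (GRCm38.p6) of 250 bases before to 50 bases after a start were matched for 6 of the 7 members, 13 windows in all, and Nr3c1 was not matched. The full element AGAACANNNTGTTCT, which reads the same on both strands, was in 1 of these windows, the fifth of 6 windows of Sgk1 in the direction of transcription. It lay at -189 to -175 from that start. Of all 32851 windows in the table, 3 (0.0091%) held it. None of the 17 matched genes of a list of glucocorticoid-induced genes did. Its hexamer TGTTCT, searched on both strands, is common: 18.97% of windows held it. Among the members it was found in 3 Sgk1 windows, where both hexamers of the full element are counted as well, and in 1 of 3 Tsc22d3 windows. No match says only that these letters are not in the window. The Sgk1 window, with the full element in capitals, is followed by the Fkbp5, Fkbp4 and Hsd11b1 windows, in which capitals mark the GC box GGGCGG on either strand.
Sgk1, chr10:21993640-21993939, plus strand: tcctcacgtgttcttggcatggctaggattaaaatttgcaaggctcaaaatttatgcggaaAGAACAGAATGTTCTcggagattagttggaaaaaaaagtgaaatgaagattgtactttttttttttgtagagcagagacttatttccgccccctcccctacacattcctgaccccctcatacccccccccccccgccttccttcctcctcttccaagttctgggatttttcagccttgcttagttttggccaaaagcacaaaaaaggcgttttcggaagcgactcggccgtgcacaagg
Fkbp5, chr17:28486100-28486399, minus strand: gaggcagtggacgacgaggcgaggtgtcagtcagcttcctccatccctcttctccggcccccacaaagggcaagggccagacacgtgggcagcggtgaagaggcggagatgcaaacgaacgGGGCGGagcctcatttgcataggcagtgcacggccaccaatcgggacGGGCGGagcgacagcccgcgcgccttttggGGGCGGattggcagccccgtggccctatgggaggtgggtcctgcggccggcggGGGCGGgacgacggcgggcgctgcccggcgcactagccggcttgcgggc
Fkbp4, chr6:128438607-128438906, minus strand: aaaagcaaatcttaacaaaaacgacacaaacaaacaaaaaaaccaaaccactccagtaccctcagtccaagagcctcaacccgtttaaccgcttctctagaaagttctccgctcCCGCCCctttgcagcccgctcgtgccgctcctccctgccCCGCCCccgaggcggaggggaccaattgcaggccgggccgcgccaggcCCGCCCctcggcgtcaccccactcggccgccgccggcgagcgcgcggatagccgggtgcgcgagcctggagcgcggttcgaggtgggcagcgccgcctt
Hsd11b1, chr1:193242311-193242610, minus strand: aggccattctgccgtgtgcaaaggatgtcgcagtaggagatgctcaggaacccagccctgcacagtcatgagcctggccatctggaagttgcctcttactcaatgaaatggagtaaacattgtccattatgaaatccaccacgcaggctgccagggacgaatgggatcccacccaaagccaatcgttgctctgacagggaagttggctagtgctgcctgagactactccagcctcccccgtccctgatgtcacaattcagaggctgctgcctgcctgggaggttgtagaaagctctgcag
The GC box occurs in 35.66% of all windows. The Fkbp5 window held 4 of them and the Fkbp4 window 3, and these windows had 32 and 33 CpG dinucleotides against a median of 7 over all windows. The Nr3c2 window held 3 GC boxes and 17 CpG dinucleotides. The Hsd11b1 window held no GC box and 6 CpG dinucleotides, and the first 4 Sgk1 windows (3 to 8 CpG dinucleotides) and the second Tsc22d3 window (3) likewise held no GC box. The array does not tell which start a messenger came from, so no value below belongs to a particular window.

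Values are the deposited signals on what their range shows to be a log2 scale, given per array and as mean ± SD over the 2 technical arrays. That SD measures labelling, hybridisation and whatever earlier steps were repeated, and not the variation between mice, and the number of arrays limits the precision. Genes for 1394 odour and pheromone receptors, which cortex hardly uses, set the background: their 95th percentile was 5.61 (replicate 1) and 5.66 (replicate 2), and a gene was called above background where it exceeded this on both arrays. Genes typical of other tissues also passed this threshold: 1 of 9 measured for testis, 3 of 12 for liver and 6 of 11 for skeletal muscle. A call above background alone therefore does not establish expression. Probe sets bind with different strength, so each gene is set against the threshold and no gene is ranked against another. Drd2 stood at 10.78 and 10.70, and all 6 neuron markers were above background with mean signals from 11.12 to 13.70. Markers of other cells were above it too: 6 of 6 for astrocytes (5.72 to 8.64), 5 of 5 for oligodendrocytes (7.15 to 9.39), 6 of 6 for microglia (5.85 to 7.84) and 6 of 6 for vessels (6.04 to 7.21). The share over all named genes was 60.3%. Fewer passed the threshold from genes of other tissues, described last: 3 astrocyte, 4 oligodendrocyte, 3 microglia and 1 vessel marker. All 6 neuron markers passed it, beside 38.2% of all named genes. Several members are known to be expressed by glia and vessels as well, and the part of those cells in the members' signal was not tested. Fewer cells of a type and less RNA per cell cannot be told apart in such a pool.

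Of the 7 members, 6 were above background, against 60.3% of all named genes. The receptors, both cochaperones and the induced genes Sgk1 and Tsc22d3 passed, and the enzyme Hsd11b1 lay on the threshold. The members' median signal was 7.18 and that of all named genes 6.36, which come from different probe sets and do not compare abundance. With 7 genes the share is a description only.

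**Figure D1:**
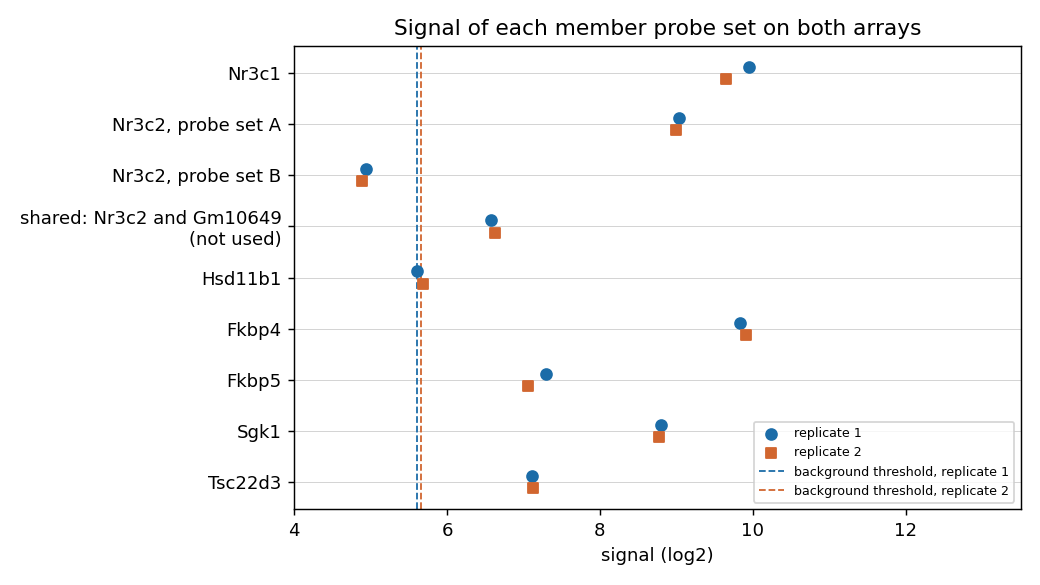
Signal (log2, horizontal axis) of each member probe set on replicate 1 (circles) and replicate 2 (squares), with each array's background threshold as a dashed line of the same colour. Nr3c1, Fkbp4, Sgk1 and Nr3c2 probe set A lie at 8.77 or more on both arrays, Hsd11b1 touches the thresholds at 5.61 and 5.68, and Nr3c2 probe set B lies under them.

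The glucocorticoid receptor gene gave clear signal. Nr3c1, measured by probe set 17353985, was at 9.95 on replicate 1 and 9.65 on replicate 2 (9.80 ± 0.21, SD, n = 2 arrays). Both arrays stood far above the threshold, by 4.16 log2 units on average.

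The mineralocorticoid receptor gene depended on the probe set. Nr3c2 probe set 17502626 (A) was at 9.04 and 9.00, and probe set 17510628 (B) at 4.94 and 4.89. Probe set A was thus 3.38 log2 units above the mean threshold, while B was under the threshold on both arrays. Each repeated to within 0.05 log2 units between arrays. Because probe sets bind with different strength and B was not above background, the size of the gap between them is not a measured quantity. The probe set mean was 6.97 ± 0.03, which passed background by 1.33 log2 units. A further probe set, annotated to Nr3c2 together with Gm10649 and therefore not used, was at 6.57 and 6.63. Which parts of the transcript these probe sets cover was not analysed here.

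Hsd11b1 encodes the 11-beta-hydroxysteroid dehydrogenase that regenerates active corticosterone from its inert 11-keto form inside cells. Its probe set 17231229 was at 5.61 and 5.68, which is -0.0035 from the threshold on replicate 1 and 0.0165 above it on replicate 2. The mean of 5.65 ± 0.05 cannot be placed on either side of background. The enzyme that does the reverse, Hsd11b2, was above background at 6.24 and 6.28. H6pd, which supplies the cofactor that Hsd11b1 uses, was above it at 7.09 and 6.93, and so was Abcb1a, a drug transporter of vessel walls that exports some steroids, at 6.51 and 6.85. Serpina6, the corticosteroid-binding globulin made by liver, was not, at 4.46 on both arrays. In this list of steroid metabolism and access 3 of 6 measured genes passed, near the 60.3% of all named genes, with a median of 5.55. For synthesis of the hormone in the adrenal gland 2 of 8 measured genes passed, with a median of 4.40. The exceptions were Star, the cholesterol carrier, at 5.68 and 5.87, and Cyp11a1, the side-chain cleavage enzyme, whose probe sets lay at 7.61 and 6.09. Hsd3b1 and Cyp21a1, later enzymes of the pathway, were not above background at 3.46 ± 0.13 and 3.69 ± 0.17. By their means, none of these 14 genes passed the higher threshold taken from genes of other tissues, described last, which 38.2% of all named genes passed. The Cyp11a1 probe set at 7.70 and 7.51 did pass it.

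The cochaperones both gave signal. Fkbp4 encodes FKBP52, which links the receptor complex to dynein and favours hormone binding, and Fkbp5 encodes FKBP51, which lowers the affinity of the receptor for hormone and is itself induced by it. Fkbp4 (probe set 17471342) was at 9.83 and 9.91 (9.87 ± 0.06), 4.23 log2 units over the threshold. Fkbp5 (probe set 17342868) was at 7.30 and 7.06 (7.18 ± 0.17), 1.54 log2 units over it. These margins are each relative to background and do not rank the cochaperones by abundance.

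The rest of the receptor's chaperone machinery was above background in 10 of 11 measured genes, beside 60.3% of all named genes, with a median of 10.20. Hsp90aa1, the inducible Hsp90, was at 9.30 and 9.13. The Hsp70 family members Hspa8 and Hspa4 averaged 10.68 ± 0.11 and 10.83 ± 0.11, and the Hsp40 protein Dnajb1 averaged 9.98 ± 0.03. The 4 Hspa8 probe sets ranged from 8.83 to 13.09, and all of them passed. Ptges3, the p23 protein that stabilises the hormone-binding state, was the exception at 5.08 and 4.77. Hsp90ab1 and Stub1 have no probe set of their own in the annotation used and were not analysed here.

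Both further members encode products induced by the bound receptors in many tissues. Sgk1, a kinase that regulates ion channels and transporters, was at 8.80 and 8.77 (8.79 ± 0.02), 3.15 log2 units over the threshold. Tsc22d3, which encodes the leucine zipper protein GILZ, was at 7.11 and 7.13 (7.12 ± 0.01), 1.48 log2 units over it. Both repeated to within 0.03 log2 units. Without a second condition, these levels give no measure of induction.

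Other genes known to be induced by glucocorticoids passed the background in 18 of 19 measured instances (median 8.61), beside 60.3% of all named genes. The clock gene Per1 was at 11.03 and 11.09 and the transcription factor Klf9 at 11.10 and 11.14. The zinc finger factor Zbtb16 was at 9.68 and 9.67, and Dusp1, a phosphatase that switches off MAP kinases, at 9.66 and 9.81. Cebpd, a transcription factor of the acute-phase response, was the exception at 4.83 and 5.15. Many of these genes also respond to neuronal activity or other signals, so the list is not specific to the hormone. Of the 19, 15 also exceeded the threshold from genes of other tissues, which 38.2% of all named genes passed.

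The nuclear proteins through which the receptors act were above background in 10 of 10 measured genes, with a median of 10.12. Of all named genes, 60.3% were above background. The p160 coactivators Ncoa1, Ncoa2 and Ncoa3 averaged 11.24 ± 0.06, 10.28 ± 0.04 and 9.22 ± 0.01, and the corepressor Nrip1 averaged 9.82 ± 0.01. All 10 stayed above every threshold tried. The highest of these, from genes of other tissues, was passed by 38.2% of all named genes.

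Of the peptides and receptors of the central stress system, 6 of 11 were above background, a share near the 60.3% of all named genes, with a median of 6.24. Crh, the corticotropin-releasing hormone that cortical interneurons also make, was at 7.81 and 7.75. Its receptor Crhr1 was at 8.15 and 8.10, and Crhbp, the protein that sequesters the peptide, at 9.30 and 9.14. Crhr2, the receptor for urocortins, was at 6.21 and 6.26. The peptide genes Ucn, at 6.89 and 6.88, and Avp, at 6.71 and 6.81, passed too and were named after their values were seen. Ucn2 at 4.70 ± 0.40, Ucn3 at 5.28 ± 0.13, Pomc at 4.75 ± 0.26 and the vasopressin receptor Avpr1b at 4.60 ± 0.04 were not above background. Avpr1a, at 5.64 on both arrays, lay between the arrays' thresholds and was not called. The threshold from genes of other tissues, which 38.2% of all named genes passed, was passed by 3 of the 11: Crh, Crhr1 and Crhbp.

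Partners of Sgk1 and the channel subunits it regulates in kidney passed the background in 8 of 10 measured instances (median 7.28). Of all named genes, 60.3% passed. Its activating kinase Pdpk1 was at 10.19 and 10.23, and Rictor, a subunit of the complex that phosphorylates Sgk1, at 9.16 and 9.04. The sister kinase Sgk3 was at 7.55 and 7.58, whereas Sgk2 was not above background at 5.44 and 5.46. The epithelial sodium channel subunit Scnn1b was not above it either, at 5.12 and 4.88. The other listed subunits, named after their values were seen, were above background: Scnn1a at 6.99 and 7.01 and Scnn1g at 6.32 and 6.21. At the threshold from genes of other tissues 5 of the 10 passed by their means, against 38.2% of all named genes. Ndrg1, a substrate of Sgk1 named after its values were seen, was not among them by its mean of 6.99, but its probe set at 9.05 on both arrays passed and its other one, at 4.98 and 4.89, did not.

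**Figure D2:**
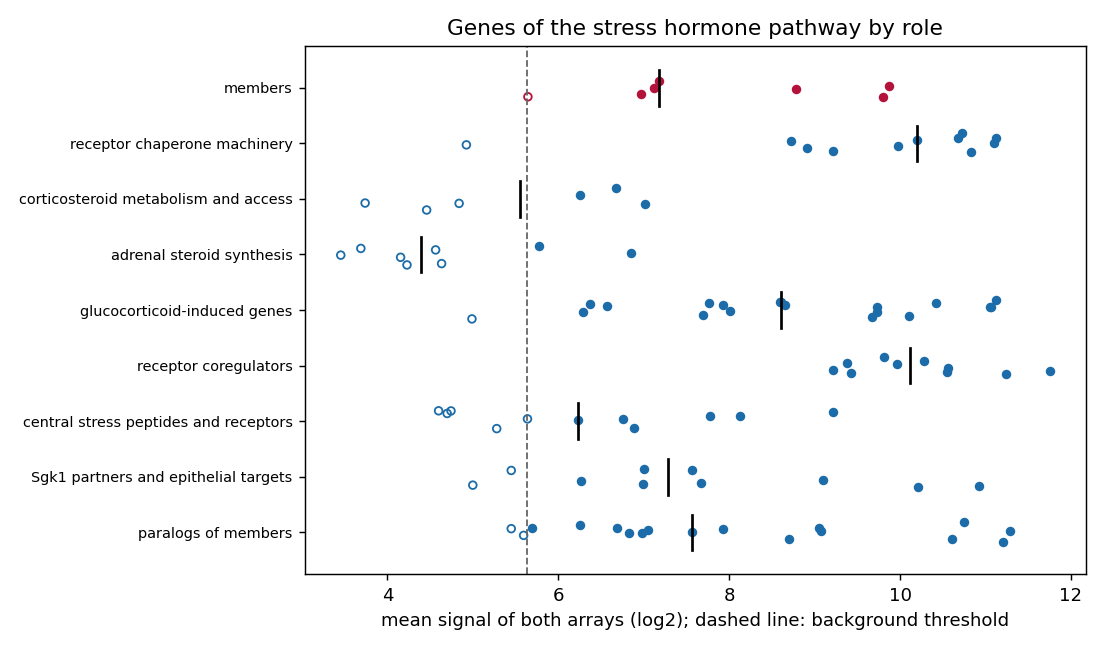
Mean signal of both arrays (log2, horizontal axis) for the members (red) and for genes of each list (blue), with filled points above background on both arrays, open points not above it, a black bar at each list's median and a dashed line at the mean threshold of 5.64. Points are shifted vertically at random for legibility. Coregulators lie entirely to the right of the line, and 6 of 8 genes of adrenal steroid synthesis lie to its left.

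The arrays repeated the members to different degrees. The receptor gene Nr3c1 fell by 0.30 log2 units from replicate 1 to replicate 2, while the SD of the difference was 0.113 over the 2125 probe sets with a mean signal within 0.5 log2 units of it. Of those, 31 (1.46%) differed by at least as much in either direction. Nr3c1 is thus among the less repeatable probe sets of its signal range, and it was singled out after its value was seen. Fkbp5 fell by 0.24, where the SD was 0.185, and 17.2% of its 3682 neighbours in signal differed at least as much. The remaining 6 member probe sets differed by 0.08 or less in either direction, each under the SD of its neighbours. Nr3c1 remained 3.99 log2 units above the threshold on its lower array.

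**Figure D3:**
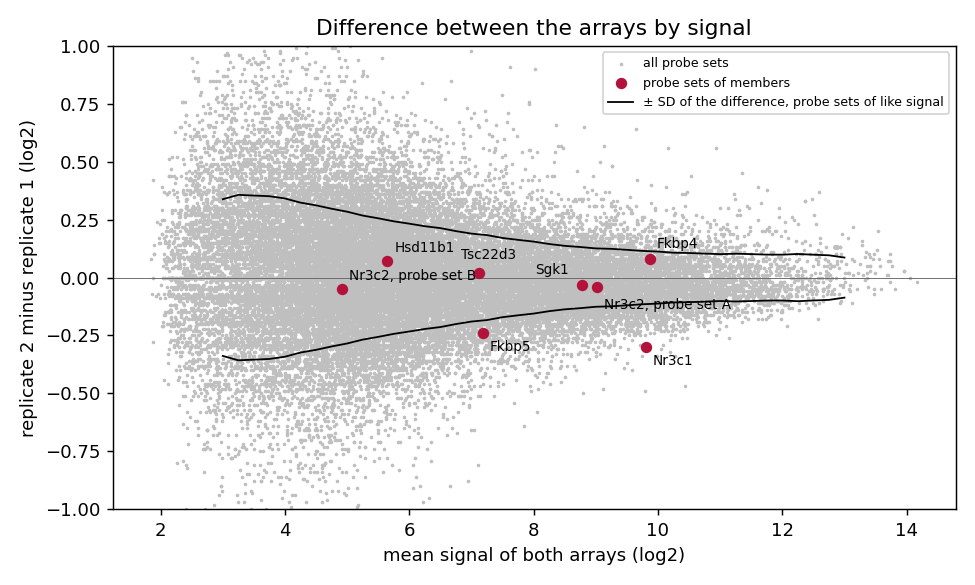
Replicate 2 minus replicate 1 (log2, vertical axis) against the mean signal of both arrays (log2, horizontal axis) for all probe sets (grey) and the 8 member probe sets (red), with black lines at plus and minus the SD of the difference among probe sets of like signal. The axis stops at 1 log2 unit, which leaves out 116 probe sets, and Nr3c1 and Fkbp5 lie outside the lower line.

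Of the other kinds of threshold tried, only that from genes of other tissues changed which members were called. The main threshold, recomputed from genes with 1 probe set, also let Hsd11b1 pass, by 0.014 log2 units on average. The stricter 99th percentile of the odour and pheromone receptor genes, at 6.64 on both arrays, was exceeded by the same 6 members as in the main result and by 45.0% of all named genes. These 6 also exceeded the arrays' own medians of 5.80 and 5.81, as did 57.5% of named genes. A 95th percentile of 32 genes typical of other tissues (testis, liver, skeletal muscle), at 7.26 and 7.06, was exceeded by 4 members and by 38.2% of named genes. Nr3c1, Fkbp4 and Sgk1 cleared it by 2.64, 2.71 and 1.63 log2 units. Fkbp5 cleared it by 0.04 on replicate 1 and 0.0008 on replicate 2, which is less than its technical spread. Tsc22d3 passed on replicate 2 alone, by 0.07, and was -0.15 from it on replicate 1. The Nr3c2 mean was -0.19 from it, although probe set A exceeded it on both arrays. With so few genes behind it this threshold is set by a handful of values. Among them are Odf1 of testis at 7.46 and 7.54 and Apoa2 of liver at 7.09 and 6.67, both named after their values were seen. The Odf1 values are averages over 2 probe sets that lay far apart. Neither probe set showed the averaged signal: 1 lay well above this threshold and the other well under it. The means of Fkbp5, Tsc22d3 and Nr3c2 lay no more than 0.19 log2 units from it, so a small shift of this threshold would change their calls.

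**Figure D4:**
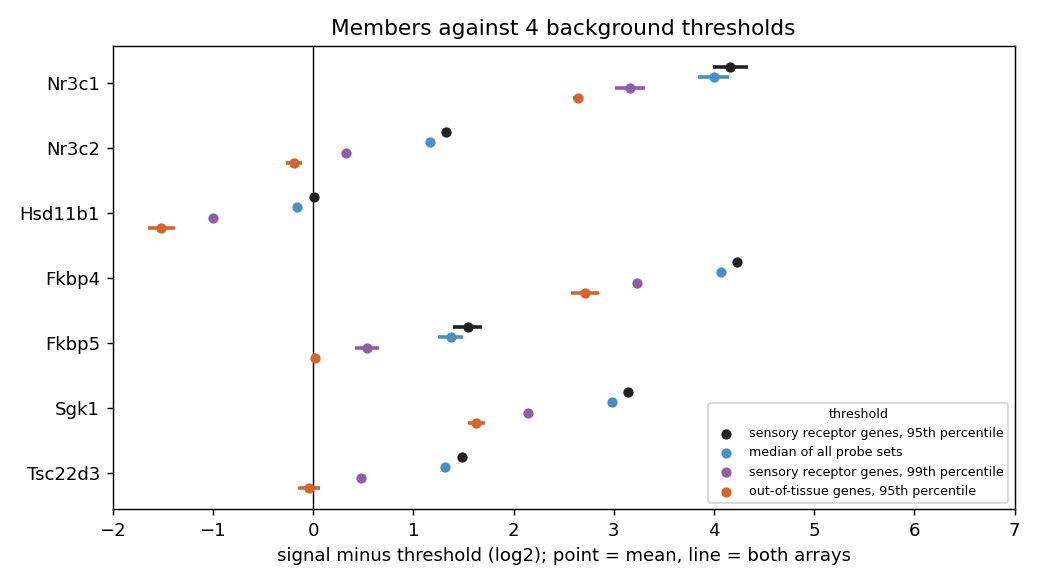
Signal minus threshold (log2, horizontal axis) of the 7 members for 4 thresholds, where the point is the mean of both arrays and the line joins the arrays. Nr3c1, Fkbp4 and Sgk1 lie right of 0 for all 4, Hsd11b1 lies at 0.0065 for the main threshold and left of 0 for the others, and Fkbp5 and Tsc22d3 lie within 0.04 of 0 on average for the out-of-tissue genes.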

How the data were processed

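Ribosome-bound RNA was measured on 2 arrays of 1 group. The deposited table holds 1 log2 signal per probe set and array. The log base is read from the values, and how the authors corrected background, summarised probes and normalized is not given in the sources used here. Per the labels' protocols, RNA was purified with Trizol and a column and labelled with the Affymetrix WT Plus kit. All 34472 probe sets had values, and 0 columns were left unused.

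Genes were named from the platform annotation, using the 23521 probe sets that name 1 gene. Symbols of the 8 member probe sets matched their gene identifiers in RefSeq. Probe sets of a gene were averaged (Python 3.11.15, pandas 2.3.3, numpy 2.4.6). Background calls, margins over the threshold and differences between arrays were computed as described above. No test was run and no p-value is given, since there is 1 group of technical replicates. The calling step was tested on simulated data. Named genes were all members, Drd2, the first 4 measured genes of each list in written order, and genes whose call differed from most of their list. Others are marked as chosen after their values were seen. The members and lists were chosen with earlier results of these data known. Alternatives were other thresholds, the highest probe set, genes with 1 probe set, quantile normalization, median centring and each array alone.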

Additional observations from a re-analysis of the deposited data

How the results depend on the processing

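The number of members above background was 6 of 7 with the 99th percentile of sensory receptor genes, the median of all probe sets, quantile normalization, a gene's highest probe set and, chosen after seeing the data, sensory receptor genes with plain numbered symbols; it was 4 with the out-of-tissue threshold and 6 of 6 with only genes of 1 probe set, which leaves out Nr3c2. On single arrays it was 6 to 7. The members' median signal over the threshold was 1.54 log2 units, with 1.47 to 1.69 on single arrays. It became 0.54 with the 99th percentile, 0.022 with the out-of-tissue threshold and 1.38 with the median of all probe sets, as these thresholds are higher. It became 3.14 with the highest probe set, which raises Nr3c2, and 2.35 without Nr3c2. Hsd11b1 turned to -0.99, -1.51 and -0.16 with these 3 thresholds and to -0.0035 on replicate 1 alone, and it was called on replicate 2 alone (0.0165) and with only genes of 1 probe set (0.014). Nr3c2 turned to -0.19 and Tsc22d3 to -0.038 with the out-of-tissue threshold. Of 89 measured genes of the pathway lists, 70 were above background, beside 60.3% of all named genes. On single arrays it was 70 to 72. The count was 61 with the 99th percentile, 51 with the out-of-tissue threshold and 68 with the median of all probe sets. The shares of all named genes there were 45.0%, 38.2% and 57.5%. With only genes of 1 probe set it was 63 of 82, and under the other alternatives it stayed at 70. The members' median difference between arrays was -0.035, -0.005 after quantile normalization and -0.045 after median centring. No paired analysis was possible because there is 1 group. Signal near background limits what can be said of Hsd11b1 at this number of arrays.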

Other observations

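Relatives of the members gave signal in most cases. Of 17 measured paralogs, 15 were above background, beside 60.3% of all named genes, with a median of 7.57. The progesterone receptor gene Pgr, the closest relative of the corticosteroid receptors measured here, was at 7.15 and 6.81. Among the immunophilins, the FK506-binding protein genes Fkbp1a and Fkbp1b averaged 10.75 ± 0.04 and 9.06 ± 0.05, and Fkbp11, of the secretory pathway, was not above background at 5.72 and 5.47. The relatives of Tsc22d3, named after their values were seen, all passed: Tsc22d1 at 9.07, Tsc22d2 at 8.71 ± 0.04 and Tsc22d4 at 6.83 ± 0.06. The Tsc22d1 mean comes from probe sets at 10.92 and 7.23. The out-of-tissue threshold, which 38.2% of all named genes passed, was passed by 9 of the 17 by their means. Pgr was not among them, nor was the mean of Fkbp9, named after its values were seen, although the Fkbp9 probe set at 7.80 and 7.49 did pass.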
